A study of Danio rerio with 6 samples.

Results

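The transcription factor sox10 acts in the neural crest, the embryonic cell population that gives rise to pigment cells, and in the melanocytes that arise from it. It binds short sequences in enhancers and promoters, which chromatin immunoprecipitation (ChIP-seq, sequencing of the DNA pulled down with an antibody) shows as peaks. Acetylation of histone H3 at lysine 27 (H3K27ac) marks active enhancers and promoters. The regions described here are the clusters with the most sox10 peaks in a zebrafish melanoma cell line. All sox10 peaks on numbered chromosomes that lay 5000 bases or less apart, edge to edge, were joined, and clusters of 50 or more peaks were kept. This gave 16 blocks with 2000 peaks, 47.6% of the 4202 sox10 peaks. The blocks together spanned 750.0 kb, 0.0553% of the 1356 Mb between the chromosome starts and the last peaks. The blocks were thus selected on the positions and number of the sox10 peaks themselves, so every value on sox10 peaks below is a description.

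Sox10 was mapped in zcrest, a melanoma line passaged more than 20 times whose founder fish was p53/BRAF/Na with crestin:EGFP, a green fluorescent reporter of the neural crest, and MiniCoopR alone. H3K27ac was mapped in the same line, and also in 1 primary melanoma of a p53/BRAF/Na fish injected with MiniCoopR;mitf:EGFP, a control plasmid. MiniCoopR is a vector that returns the pigment cell factor mitfa to fish that lack it. The line is 1 culture from 1 founder genotype, and the tumor was taken in bulk, so other cells of the tumor are included. There was 1 library per group, so no value has a replicate check, and the read depth is unknown from the peak lists. Positions are on the Zv9 assembly. Neither genome sequence nor gene annotation of that assembly was used here, so the bases under the summits and the genes near the blocks were not analysed here.

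The blocks lay on 9 chromosomes and are named here by chromosome, with a letter for their order along it. Fold enrichment is the authors' value for a peak, the pile-up at its summit over the background estimated by the peak caller. They are taken in turn as pairs close together, blocks bordered by smaller clusters, and blocks with no other sox10 peak nearby.

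Of the pairs, 16b (chromosome 16, 20231787 to 20278222) held 103 peaks over 46.4 kb, 27.3% of which lay inside peaks. Block 16c (20284451 to 20326488) followed after 6.23 kb with 100 peaks, filling 33.0% of 42.0 kb. Any sox10 peak in so short a gap would have been joined to a block, so the gap is empty by construction. Their median fold enrichments were 3.70 and 2.99. On chromosome 24, block 24a (12337643 to 12362966) was the shortest of all, with 70 peaks and 42.5% of 25.3 kb in peaks. Block 24b (12371357 to 12446730) began 8.39 kb further on and held 218 peaks, filling 44.8% of 75.4 kb. This gap too is empty by construction, and the median folds were 3.73 and 4.10. Block 25a (chromosome 25, 27109148 to 27138614) had 76 peaks in 29.5 kb, and 25b (27156246 to 27194850) had 104 in 38.6 kb, 17.6 kb away. Peaks filled 17.7% and 29.3% of them, with median folds of 5.41 and 4.6. Smaller clusters stood beside these pairs too, 1 of 20 peaks 5.41 kb to the right of 24b and 1 of 5 peaks 6.64 kb to the left of 25a.

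The pair on chromosome 7 was wider apart. Block 7a (66162829 to 66216405) held 118 peaks over 53.6 kb, and 7b (66278482 to 66315725) held 52 peaks over 37.2 kb, the fewest and, at 1.40 per kb, the thinnest packing of the 16. The 62.1 kb between them carried 42 more sox10 peaks in 3 clusters, the largest of 27 peaks. Block 7b was also the emptiest, with 14.8% of its bases in peaks, and 7a had 19%.

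Blocks with smaller clusters at a border included the longest. Block 14b (chromosome 14, 47119920 to 47200229) reached 80.3 kb, held 219 peaks and had a cluster of 11 peaks 6.05 kb beyond its right end. Block 12b (chromosome 12, 16867128 to 16929155) had 181 peaks over 62.0 kb and a cluster of 4 peaks 7.23 kb to its left. Block 13 (15447515 to 15504062) held 117 peaks over 56.5 kb, with a single peak 7.93 kb to the left and a cluster of 19 peaks 7.04 kb to the right. Block 23 (12727386 to 12778839) had 104 peaks over 51.5 kb and a single peak 5.46 kb to the left. These 4 were filled to different degrees: peaks covered 30% of 14b and 36% of 12b, but 19.7% of block 13 and 17.3% of block 23.

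The other 4 blocks had no sox10 peak within 100 kb on either side. Block 10 (13014105 to 13046318) was the most tightly packed of all, with 157 peaks in 32.2 kb, 4.87 per kb, and 48.6% of its bases in peaks. Block 12a (15431074 to 15480844) came next in packing, with 210 peaks in 49.8 kb, 4.22 per kb, and 38.4% in peaks. Block 16a (16604251 to 16642712) had 106 peaks in 38.5 kb and 41.6% in peaks, and 14a (29795824 to 29827400) had 65 peaks in 31.6 kb and 24.8% in peaks. On chromosomes with more than 1 group, the distances were 1390 kb between 12a and 12b, 17300 kb between 14a and 14b, and 3590 kb between 16a and 16b. In all 16 blocks together, 30.4% of the bases lay inside peaks.

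**Figure D1:**
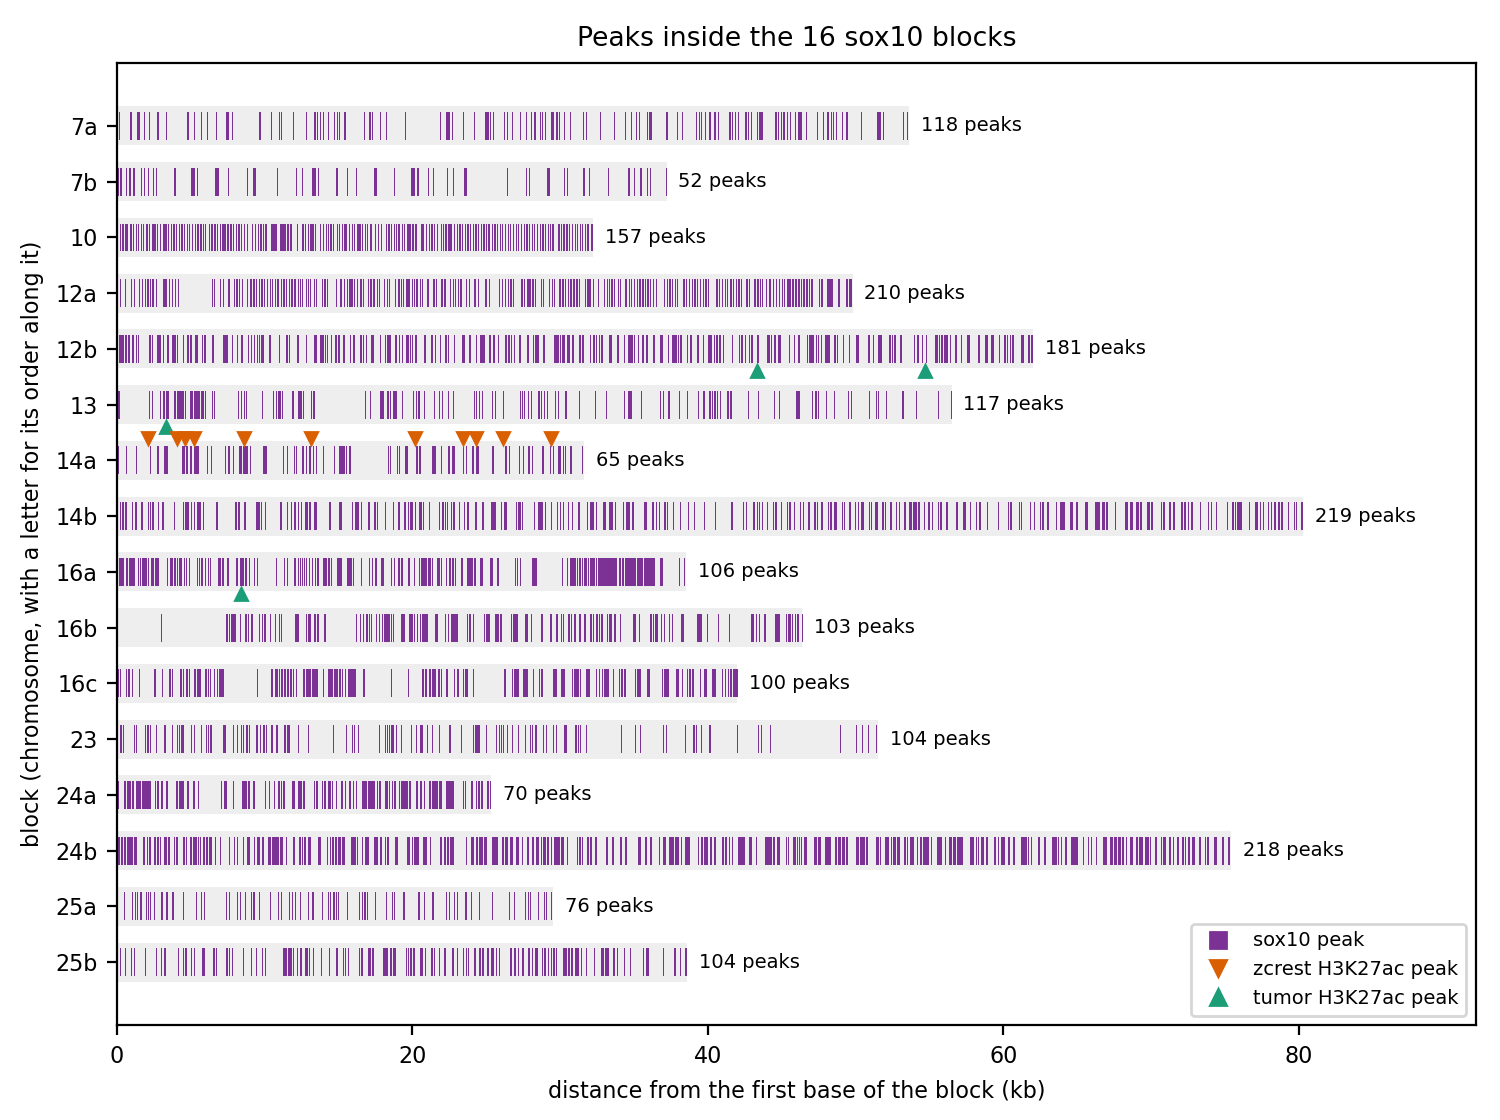
Each row is 1 of the 16 blocks, drawn to scale from its first base (x axis, kb), with sox10 peaks as purple bars on a grey span. Triangles mark H3K27ac peaks, of zcrest above the row and of the tumor below it. Block 10 carries closely spaced peaks from end to end, block 23 thins out toward its right end, and the 11 zcrest H3K27ac peaks all lie in block 14a.

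Peaks in the blocks were narrow and mostly of moderate strength. Their median width was 87.0 bases, with quartiles of 66.0 and 133 bases and a maximum of 1262 bases in block 16a (16636817 to 16638078). The median fold enrichment was 4.25, with quartiles of 3.28 and 5.39. Only 17 of the 2000 peaks reached a fold of 10 or more, while 209 peaks did so among the 4196 on numbered chromosomes. Block medians ran from 2.68 in block 10 to 7.07 in block 14a, the highest. Block 10 was also the most uniform, with quartiles of 2.45 and 2.98 and a highest value of 4.41. In 14a the quartiles were 5.67 and 8.25.

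The strongest peak of each block stood in no common place. The highest fold in any block was 17.0, at 29825330 to 29825411 in block 14a, 93.6% of the way along. Block 12b had its strongest peak, with a fold of 13.3, at 16867285 to 16867583, 0.672% along. Block 25a peaked at a fold of 12.3 at 31.5% and 7a at 11.8 at 84.3% of the length. In the other 12 blocks the strongest peak had a fold of 4.41 (block 10) to 11.4 (14b). In 4 of the 16 blocks the strongest peak lay within 10% of the length from an end.

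**Figure D2:**
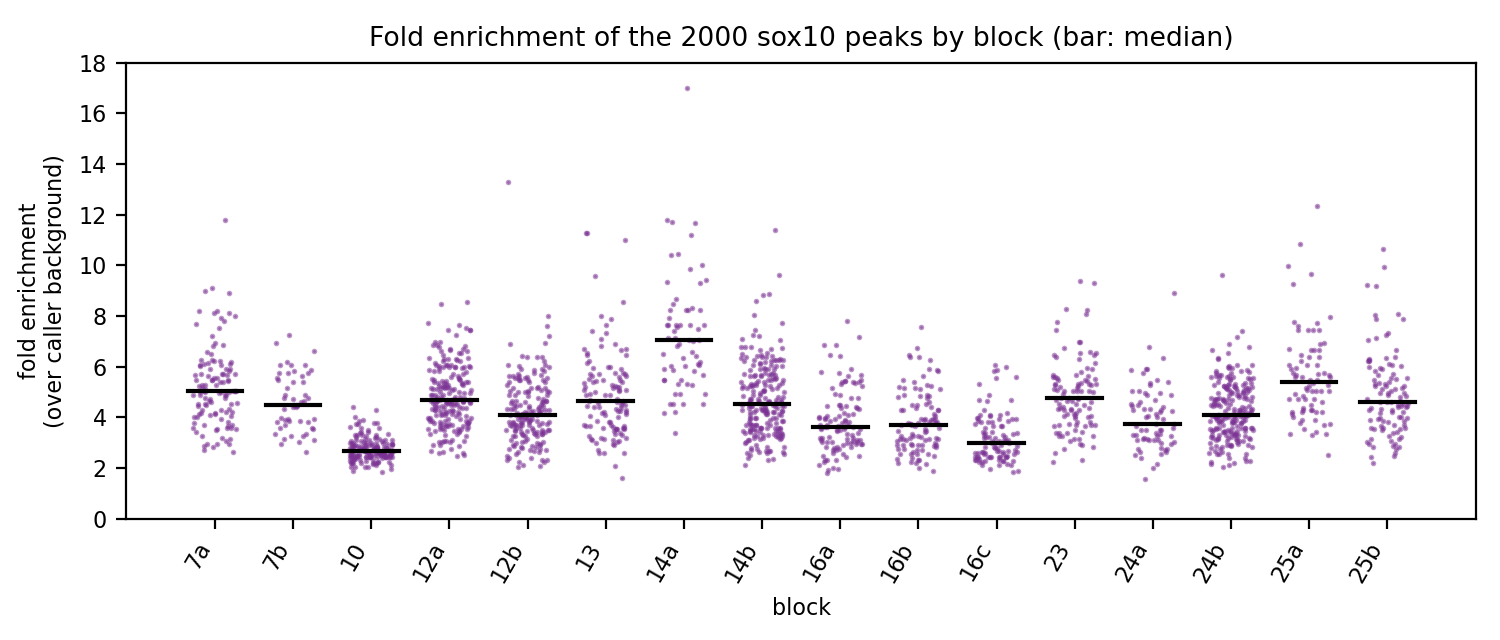
Fold enrichment over the caller's background (y axis) of each of the 2000 sox10 peaks (dots, spread sideways at random) in the 16 blocks (x axis), with the block median as a bar. Block 10 is low and narrow, between 1.84 and 4.41, and block 14a is the highest, with a median of 7.07 and a maximum of 17.0.

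Pooled over the blocks, neighbouring summits were most often separated by a little under 200 bases. Over 1984 neighbouring pairs the median summit spacing was 283.5 bases, with quartiles of 187 and 447 bases. The fullest bin of 50 bases was 150 to 200, with 504 spacings, 25.4% of all. The spacing was below 100 bases in 4 cases and 2000 bases or more in 13. In block 10 the quartiles were 175 and 198 bases around a median of 183, close together, while the full range was 125 to 577 bases. In block 12a the quartiles were 176 and 241 around a median of 190. Block 7b was the loosest, with a median of 500 bases. In the remaining blocks the medians were longer than in 10 and 12a, from 244 bases in 16a to 403.5 in 14a.

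Longer distances fell on multiples of the same length. Over all pairs of summits within a block, counted in bins of 20 bases, 256 pairs were 180 to 200 bases apart and 55 were 260 to 280 bases apart. The next crest was at 360 to 380 bases, with 281 pairs, and the next trough at 460 to 480, with 64. Further crests stood at 540 to 560 (246 pairs), 720 to 740 (236), 920 to 940 (197), 1100 to 1120 (217), 1280 to 1300 (194) and 1480 to 1500 bases (186). The troughs after them held 63 to 76 pairs. The crest was 4.65 times as full as the trough that followed it at the first multiple and 2.48 times at the eighth.

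The repeat distance was estimated as the length between 120 and 260 bases, in steps of 0.5, at which the mean cosine of all pair distances up to 2000 bases was highest. The mean cosine is 1 when all distances are exact multiples and near 0 when they follow no multiple. For the 10761 pairs of the 16 blocks together the repeat distance was 184 bases, with a mean cosine of 0.27, against a median of -0.01 over the other lengths tried. By block, 13 of the 16 had their highest value within 10 bases of this, between 181 and 190.5 bases. The pooled length comes from the pairs of these same blocks, so this count is no separate check. The cosine is a maximum over many lengths, so a value of about 0.1 alone says little. It exceeded 0.3 in 7 blocks: 0.65 at 181 bases in block 10, 0.62 at 186 in 7a, 0.53 at 186 in 16c, 0.53 at 184.5 in 25a, 0.43 at 185.5 in 12a, 0.38 at 216 in 7b and 0.37 at 182 in block 13. In 7b only 130 pairs were available, and pairs 2 to 10 kb apart gave 185.5 bases with a cosine of 0.34.

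Pairs 2 to 10 kb apart were given a repeat distance of their own, since a small error in the distance adds up over many repeats. They gave 186 bases with a mean cosine of 0.57 in 7a, 185.5 with 0.45 in 16c and 185.5 with 0.25 in 12a. In block 10, 25a and block 13, all above 0.3 at short distances, the cosine was 0.13 (183 bases), 0.13 (183.5) and 0.10 (183). For all 16 blocks together, pairs 2 to 10 kb apart gave 185.5 bases with a mean cosine of 0.12. With pairs up to 2000 bases, the blocks with low values were 12b (0.07), 16a (0.08), 24a (0.11, at 124 bases), 24b (0.11) and 14a (0.12, at 222.5 bases). Low values were also found in 14b (0.12), 25b (0.12), 16b (0.17) and 23 (0.22). Of these, 14a and 24a peaked outside the range of the others. The pairs 2 to 10 kb apart put 13 of the 16 blocks within 10 bases of 184. These were not the same 13, as 7b entered at 185.5 bases and 16a left at 162.5. The cosines of these 13 ran from 0.05 in 24b to 0.57 in 7a, and most were 0.14 or less. Long distances are sums of shorter ones between the same summits, so they are no separate check. Among the blocks with low values they gave 185.5 bases in both 12b and 14b, with cosines of 0.12 and 0.11. In 16a, 24a and 14a they gave 162.5, 155.5 and 225 bases, with 0.08, 0.10 and 0.09. Cosines of this size alone say little.

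A similar length was found in sox10 clusters of 20 to 49 peaks, and no comparable cosine in the H3K27ac lists. Clusters of 20 to 49 peaks had a repeat distance of 185.5 bases with a mean cosine of 0.19 over 3138 pairs. Clusters of 5 to 19 peaks had one of 182.5 bases with 0.09 over 1852 pairs, a cosine that alone says little. For H3K27ac peaks joined in the same way, the highest cosine was 0.02 in zcrest, over 34946 pairs, and 0.02 in the tumor, over 24201 pairs, at 163.5 and 196 bases. Sox10 peaks of the blocks had a median width of 87 bases, against 296 and 239 bases in those lists, and 31.8% of their neighbouring summits were under 200 bases apart, against 0.436% and 0.389%. The part of peak width in the repeat was not tested. Whether the sequence under the blocks is itself repeated in tandem was not tested either. In such sequence reads from one copy can be placed on another, which bears on the number, spacing and fold of the peaks given here.

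**Figure D3:**
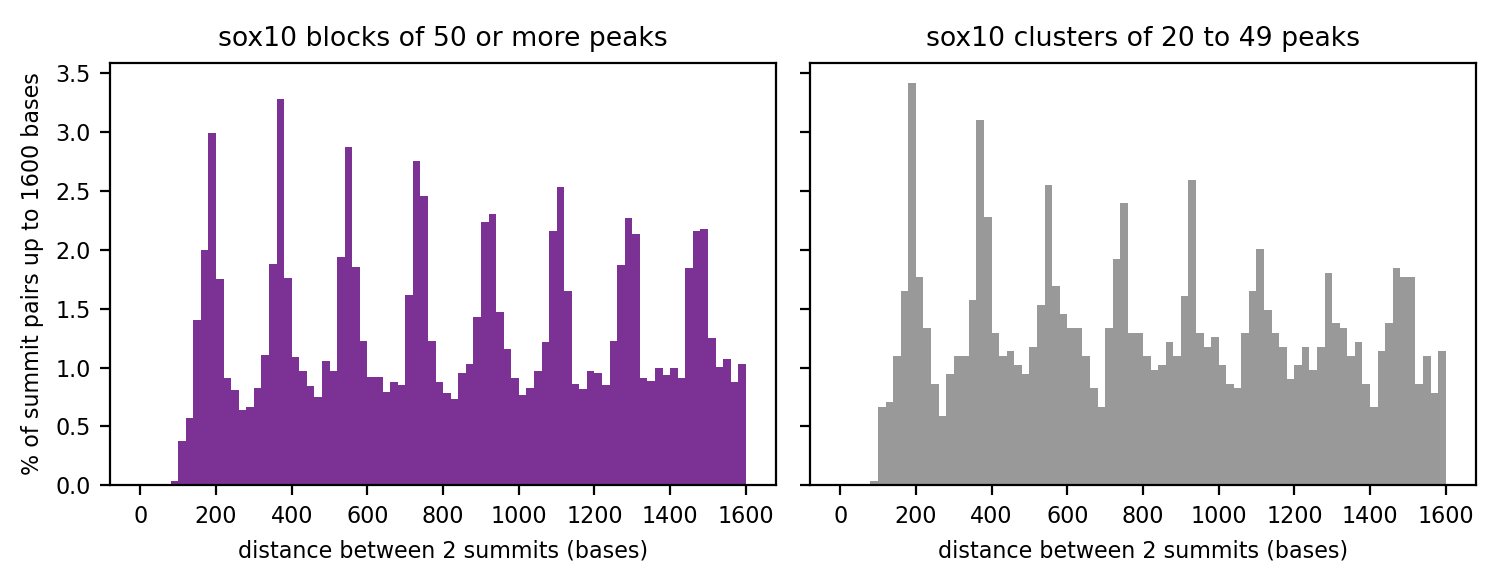
Share of summit pairs (y axis, percent of pairs up to 1600 bases apart) by distance in bases (x axis, bins of 20 bases), for the blocks of 50 or more sox10 peaks on the left and for clusters of 20 to 49 on the right. Both show crests near multiples of 184 bases, with 8 crests up to 1500 bases in the blocks.

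Summed over all blocks, the peaks were evenly spread along their length. With all blocks scaled to the same length and cut into 10 equal segments, each segment held between 187 and 212 of the 2000 peaks, and its median fold lay between 3.85 and 4.61. Single blocks varied more: 16b had 2 peaks in its first segment and 15 in its fullest, and block 23 had 4 in its emptiest segment, near the right end, and 16 in its fullest. Segments held 3 to 10 peaks in 7b, 3 to 9 in 14a, 5 to 16 in 16a and 4 to 14 in 16c. Of 760 bins of 1 kb, 43 (5.66%) held no summit, 8 of them in block 23 and 0 in blocks 10, 24b and 25b. The longest stretch without a peak was 4686 bases in block 23 (12771671 to 12776356) and 4320 bases in 16b (20234854 to 20239173). It was 378 bases in block 10, and it stayed below 2000 bases in 8 blocks.

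The borders were sharp on the inside. The outermost 5 kb at the 32 ends held 2 to 26 sox10 peaks, with a median of 13. Per kb this was 1.05 times the density of the whole block at the median end. The density lay below that of the block at 14 of the 32 ends, although each end starts on a peak by construction. Lowest were the left end of 16b, where 2 peaks made 0.18 times the block density, and the right end of block 23, where 5 peaks made 0.495 times. At the end peaks themselves the fold was as in the block: it lay under the block median at 15 of 32 ends. Outside, the joining rule leaves at least 5 kb empty by construction. Beyond that the ends fell into 2 kinds: 15 had another sox10 peak within 5.41 to 17.6 kb, and 17 had none within 100 kb, the nearest of those being 112 kb away at the left end of 7a. None had its next sox10 peak between 17.6 and 112 kb. The gaps of 6.23, 8.39 and 17.6 kb between paired blocks are each counted at both of their ends, so these ends are not separate observations.

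**Figure D4:**
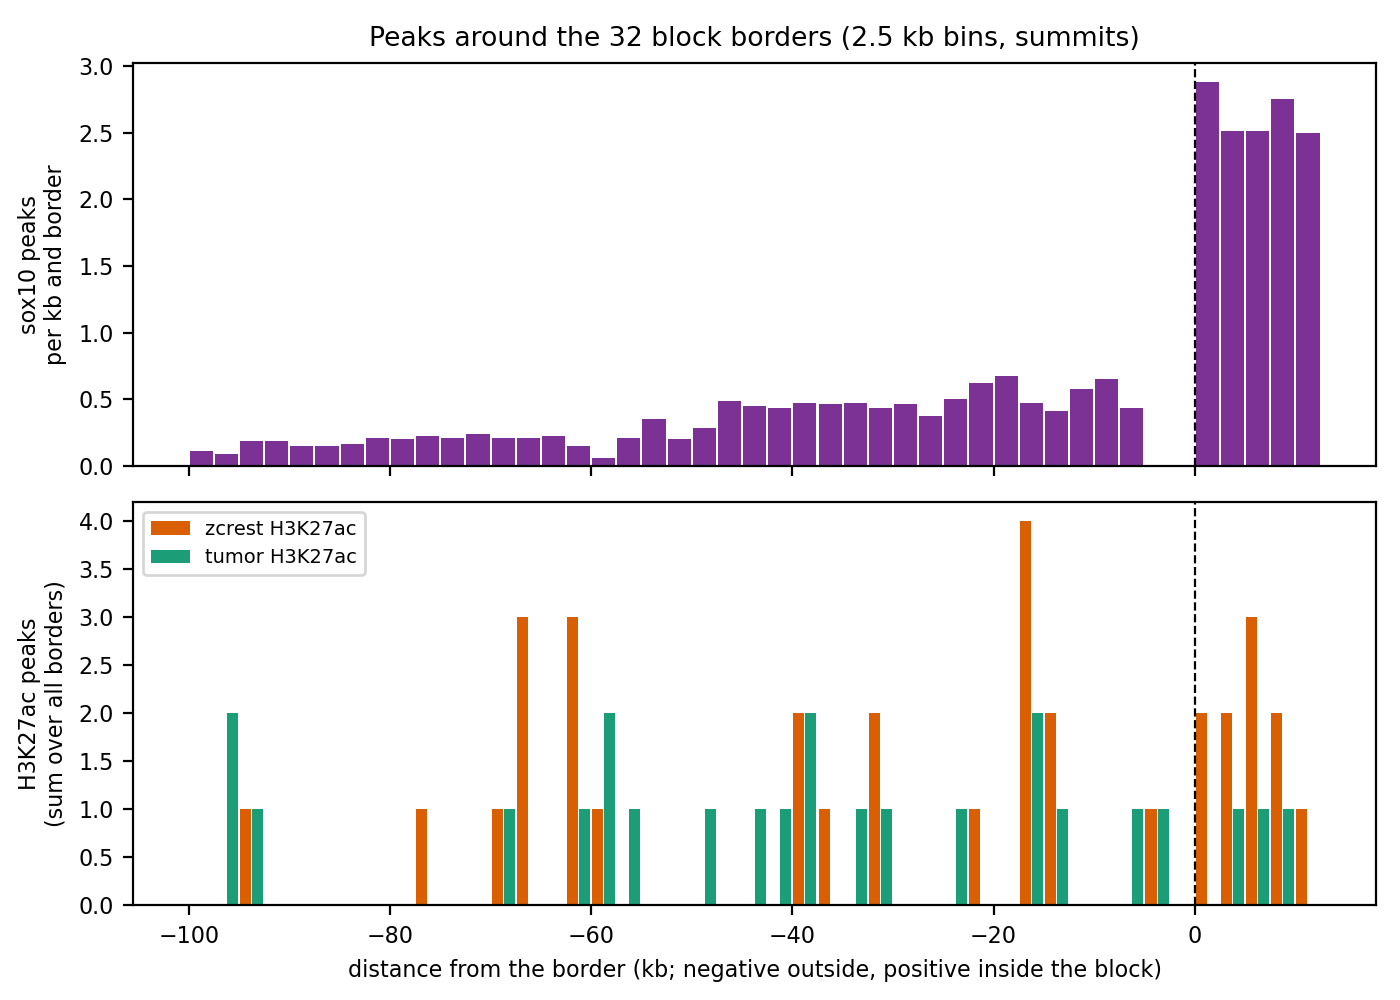
Peaks around the 32 block ends in bins of 2.5 kb, by distance from the border (x axis, kb, negative outside). The upper panel gives sox10 peaks per kb and border and steps up to 2.88 in the first bin inside, and the lower panel gives H3K27ac peaks of zcrest and the tumor summed over all borders. Bins outside also count peaks of neighbouring clusters and blocks.

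H3K27ac was scarce in and around the blocks in both sources. Inside the 750.0 kb lay 11 H3K27ac peaks of zcrest, 14.7 per Mb (95% Poisson interval 7.32 to 26.2), and 4 of the tumor, 5.33 per Mb (1.45 to 13.6). In the 100 kb to either side, outside all blocks, there were 23 zcrest peaks over 2.49 Mb, 9.22 per Mb (5.85 to 13.8), and 21 tumor peaks, 8.42 per Mb (5.21 to 12.9). Over all chromosomes the lists averaged 37.1 and 44.1 per Mb, so both sources were well below their own average in these flanks. The intervals cover counting error only, and neighbouring H3K27ac peaks are not independent.

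The zcrest peaks inside blocks were all in 1 of them. Block 14a held 11, of 144 to 282 bases, at 29797928 to 29825475, with fold enrichments from 2.54 to 5.38. Of these 11 peaks, 10 overlapped a sox10 peak, and 12 sox10 peaks lay on them. As sox10 peaks fill 24.8% of 14a and are closely spaced, many peaks of this width would touch one, and nothing is read from the overlap. The strongest sox10 peak of all blocks, at 29825330, was on the last of them, which had an H3K27ac fold of 3.15. The strongest H3K27ac peak of 14a, at 29820126 to 29820278, had a fold of 5.38. In the 15 other blocks, over 719 kb, zcrest had 0 H3K27ac peaks. These 15 are what is left without the block that holds the peaks, so no rate is read from the 0. The −log10 q of the H3K27ac peaks inside blocks was 3.1 to 9.01 in zcrest and 2.26 to 4.27 in the tumor. With H3K27ac peaks of a −log10 q of 5 or more, 4 were left inside blocks in zcrest and 0 in the tumor. With sox10 peaks of that strength, 14a held 48 and fell below the limit of 50.

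Tumor H3K27ac inside blocks was different in place. It consisted of 2 peaks in 12b (16910447 to 16910609, fold 4.44, and 16921840 to 16921986, fold 2.94), 1 in block 13 (15450806 to 15451020, fold 3.16) and 1 in 16a (16612645 to 16612791, fold 2.94). Each overlapped 1 sox10 peak of the line, in blocks that sox10 peaks fill to 36%, 19.7% and 41.6%. Block 14a had none in the tumor.

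Around the blocks, the nearest H3K27ac peaks were far away. Because paired blocks share their neighbours, the 16 blocks lie in 12 separate stretches, which have 24 outer sides. The nearest zcrest H3K27ac peak was 100 kb or more away at 16 of the 24 sides, and so was the nearest tumor peak. In 4 stretches, those of 12b, of 16b and 16c, of 24a and 24b, and of 25a and 25b, this held on both sides and in both sources. Per block, 8 of 16 had no H3K27ac peak of either source in the 100 kb flanks. The longest zcrest stretch ran for 665 kb on chromosome 16, from 19827734 to 20493185, around 16b and 16c. In the tumor the longest ran for 619 kb on chromosome 24, from 11972136 to 12590877, around 24a and 24b.

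These stretches belong to the long ones of each list. In the 11 stretches without a zcrest peak in a block, the distance between the H3K27ac peaks on either side was 216 to 665 kb, with a median of 345 kb. Of all 50313 gaps between neighbouring zcrest peaks, 0.888% were at least as long as that median, and they made up 16.6% of the chromosome span. In the 9 such stretches of the tumor the range was 223 to 619 kb, with a median of 371 kb. Of the 59735 tumor gaps, 0.517% were as long, making up 12% of the span. A block placed anywhere is more likely to hit a long gap than a short one, which the share of gaps leaves out. The share of the span holds for a single position. The stretches counted here had no peak in their blocks, so each gap had to be longer than the blocks it holds. Neither share is thus a baseline for them, and no test was made.

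At part of the sides both sources ended these stretches at the same place. At 10 of the 24 sides the nearest zcrest and tumor H3K27ac peaks overlapped, and at 13 they lay within 1 kb of each other. Of the 24 zcrest peaks at these sides, 66.7% had any tumor peak within 1 kb, against 71.5% of all 50338 zcrest peaks. The shares overlapping one were 54.2% and 47.9%, so for zcrest peaks the sharing was near that of the whole list. Of the 24 tumor peaks at these sides, 79.2% had any zcrest peak within 1 kb, against 51.1% of all 59760 tumor peaks. The shares overlapping one were 70.8% and 39.8%, so for tumor peaks the sharing was above that of the whole list. These differences were not tested. Around 7a and 7b, the stretch ran from 66032075 to 66330118 in zcrest and from 66032004 to 66330344 in the tumor. On chromosome 12 the peaks of the 2 sources at the left of the 12b stretch lay 496 bases apart, and those at its right overlapped at 17158695. The right limit of the stretch around 16b and 16c was a strong peak in both, with a fold of 20.0 in zcrest and 27.2 in the tumor. At 8 sides the sources differed by more than 20 kb, the most at the left of block 10, where the zcrest peak was 168 kb and the tumor peak 378 kb from the block.

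Acetylation lay within 20 kb of a border at 4 of the 32 ends in zcrest and at 3 in the tumor. The left end of 14b was the closest, with a zcrest peak 3.62 kb away (47115939 to 47116300, fold 7.96) and an overlapping tumor peak at 3.42 kb (47116243 to 47116495, fold 8.82). That block had 5 zcrest and 8 tumor peaks in its left flank and none in its right one, where the nearest peaks of both sources were 288 kb away. At the right end of 7b the distances were 14.4 kb in zcrest and 14.6 kb in the tumor, and at the right end of block 10 they were 16.5 and 16.6 kb. The right end of 14a had a zcrest peak at 16.6 kb and the nearest tumor peak at 40.1 kb. Block 23 was the reverse on its right, with the zcrest peak at 173 kb and the tumor peak at 34.4 kb. On the right of 16a the zcrest peak was at 21.5 kb and the tumor peak at 68.8 kb. On the right of block 13 they were at 30.3 and 30.6 kb.

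**Figure D5:**
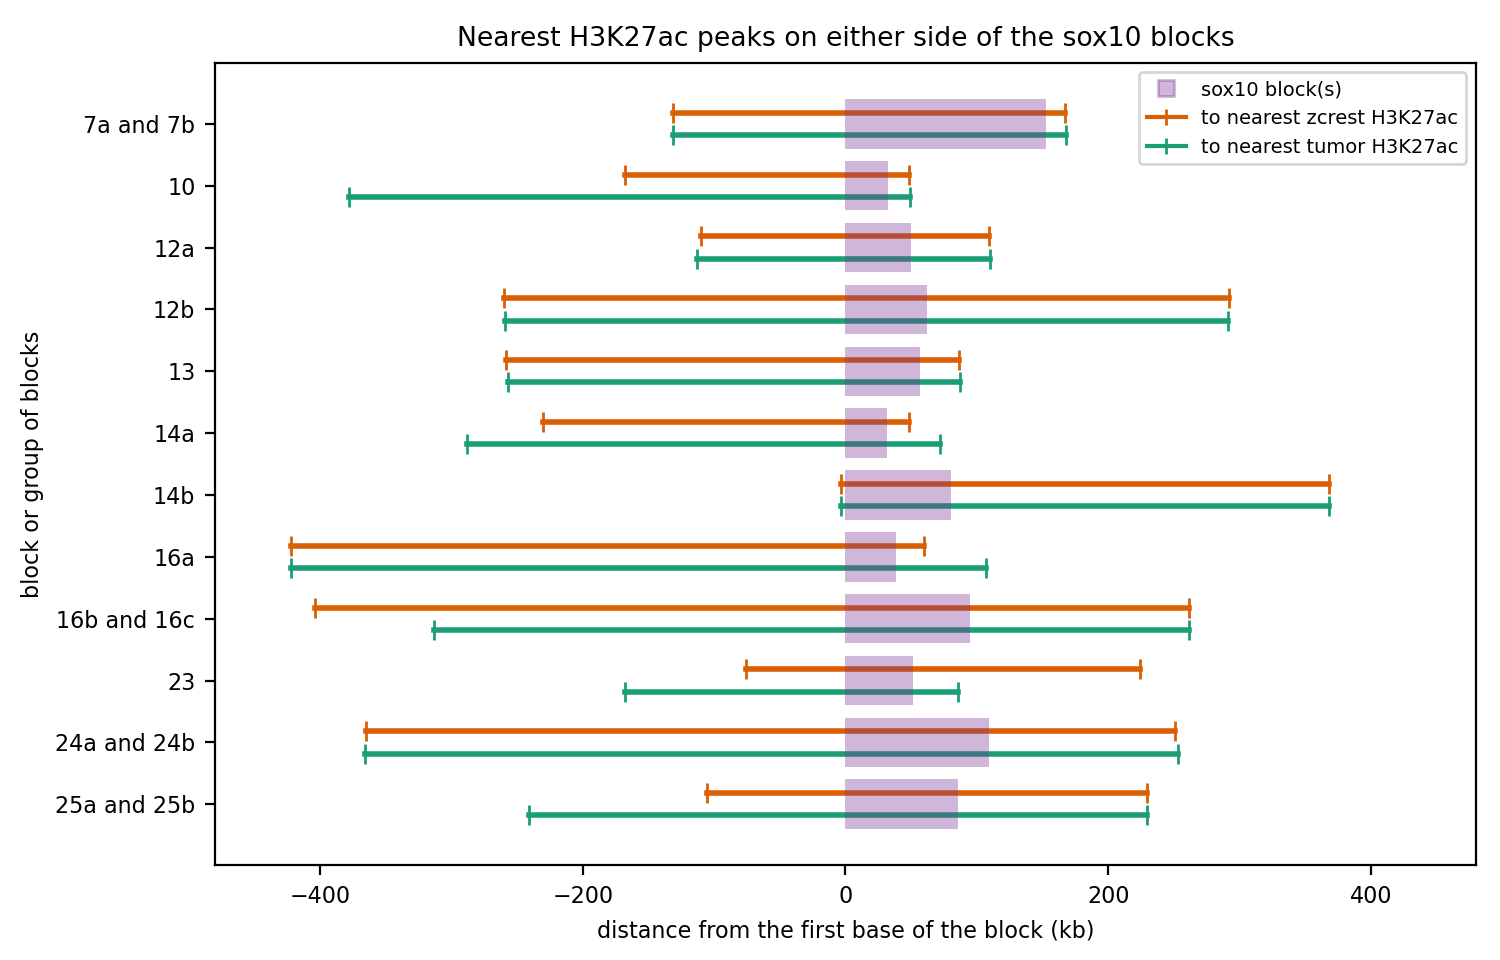
For each of the 12 stretches (rows), the blocks in purple and the distance to the nearest H3K27ac peak on either side in zcrest (upper line) and in the tumor (lower line), in kb from the first base of the block (x axis). The lines of both sources end within 1 kb of each other at 13 of 24 sides, with the largest difference to the left of block 10. Over the whole lists, 71.5% of zcrest peaks have a tumor peak within 1 kb, and 51.1% of tumor peaks have a zcrest peak there. Block 14b has an H3K27ac peak close to its left end only. H3K27ac peaks inside blocks are left out of the lines.

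Other sox10 clusters lay in less empty surroundings. In the 100 kb flanks of the blocks zcrest H3K27ac had 9.22 peaks per Mb, against 25.8 (21.2 to 31.1) beside clusters of 20 to 49 peaks, 29.7 beside clusters of 2 to 19 and 46.2 beside isolated sox10 peaks. Tumor values followed the same order, with 8.42 per Mb at the blocks against 28.4 (23.6 to 34.0), 32 and 45.2. Over all 32 block ends the median distance to the nearest zcrest peak was 167 kb, against 68.1 kb at clusters of 20 to 49. In the tumor it was 207 and 45.5 kb. Inner ends of paired blocks were measured across the partner block, which lengthens the block medians, and paired blocks share their nearest peaks. Inside, zcrest peaks were present in 1 of 16 blocks, against 7 of 27 clusters of 20 to 49. Per Mb this was 14.7 (7.32 to 26.2) against 118 (86.3 to 157). Of the 46 zcrest peaks inside those clusters, 20 lay in a single cluster on chromosome 10. Tumor peaks were present in 3 of 16 blocks, 5.33 per Mb, against 1 of 27 clusters, 2.56 per Mb (0.0649 to 14.3). The differences were not tested.

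In packing, the blocks were close to the next smaller clusters. Blocks held 2.64 peaks per kb at the median, against 2.14 in the 27 clusters of 20 to 49 peaks, and 29.7% against 28.1% of their bases lay inside peaks. Their median span was 44.2 kb, against 13.8 kb, as the rule on peak number implies. Median fold enrichment was 4.25 in blocks, 4.94 in clusters of 20 to 49, 6.26 in clusters of 2 to 19 and 5.14 in isolated peaks.

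The limit of 50 peaks marks no break in cluster size, and a minimum of 40 gave 21 clusters. Just above it stood 7b with 52 peaks, 14a with 65 and 24a with 70. Just below it were a cluster of 47 peaks on chromosome 7 (70981334 to 71006984) and 2 of 45 peaks, on chromosome 3 (48091835 to 48102370) and chromosome 10 (2486352 to 2506884). The chromosome 10 cluster was the fullest of these 6, with 71.4% of its 20.5 kb in peaks, a median fold of 7.92 and 20 zcrest H3K27ac peaks inside. The one on chromosome 3 had a median spacing of 195 bases and 0 H3K27ac peaks of either source, and so did that on chromosome 7, with a spacing of 337.5 bases.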

How the data were processed

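The values come from 3 deposited peak lists, for sox10 and H3K27ac in zcrest and H3K27ac in a primary melanoma, and the 3 inputs were not analysed here. Reads were aligned with Bowtie to Zv9 and peaks were called with MACS2 2.0, per the submitters' processing notes. Which control and thresholds were used is not given in the sources used here. Each deposited list gives, per peak, positions, a ratio to background (fold enrichment), a −log10 p-value and q-value, and a score, which the authors' caller derived from the q-value. Fold enrichments were compared only within a list.

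Peaks were joined and measured with pandas 2.3.3, numpy 2.4.6 and scipy 1.17.1 under Python 3.11.15, and plotted with matplotlib 3.10.9. Peaks overlapped when they shared 1 base. Flanks were 100 kb on each side, for the blocks without bases of other blocks. For each comparison set only bases of that same set were left out, so its flanks can include blocks and other clusters. The joining and the repeat distance were tested on simulated data. The simulated positions without a repeat had no minimum distance, while neighbouring summits in the blocks were at least 73 bases apart. They thus do not show which low cosines differ from no repeat. The blocks and the comparison sets were chosen with earlier results of these data known, and the repeat distance was measured after the pair distances had been seen. Strongest peak, longest gap and nearest H3K27ac peaks were measured for every block, and the text names every block but gives these values only as ranges and examples; named too were the 3 clusters to either side of the 50 peak limit. Depth is unknown, and peak number depends on it. Alternatives covered joining distances, block minimums, q-values, overlap rules and flank lengths.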

Additional observations from a re-analysis of the deposited data

Results flagged for a closer look

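H3K27ac differed between the sources in direction from the blocks to their flanks. In zcrest the number of peaks per Mb inside the blocks was 1.59 times that in the 100 kb flanks, and in the tumor it was 0.633 times. The zcrest direction did not hold in every setting: the ratio was 0.996 with flanks of 200 kb and 0.665 with H3K27ac peaks of −log10 q 5 or more, where that of the tumor was 0.483 and 0. The Poisson intervals of inside and flank overlap in zcrest (7.32 to 26.2 and 5.85 to 13.8 per Mb) and in the tumor (1.45 to 13.6 and 5.21 to 12.9). The zcrest value rests on block 14a, which holds all 11 of its peaks, and the 15 other blocks had 0. There is 1 library per source, so the difference was not tested.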

How the results depend on the processing

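Of 51 alternatives to 10 values, 40 left a count or the span within 1.5 times, or a value inside its counting interval or, for the repeat distance, within 3 bases. The repeat distance was 184 to 185.5 bases in 4 settings chosen after seeing the data: pairs up to 1000 or 5000 bases, without block 10, and sox10 peaks with a −log10 q of 5 or more. The share of bases inside peaks, 30.4%, has a very narrow counting interval. That interval does not cover the spread between blocks, from 14.8% in 7b to 48.6% in block 10. It was 32% and 25.1% with joining at 2500 and 10000 bases, 30.7% and 31.2% with minimums of 40 and 60 peaks, and 26.6% with sox10 peaks of −log10 q 5 or more, where the median spacing was 336 bases. The 11 zcrest H3K27ac peaks inside became 36 with the minimum of 40, 0 with the stricter sox10 peaks and 4 with H3K27ac peaks of −log10 q 5 or more, a setting that left 0 tumor peaks. Under the stricter sox10 peaks block 14a held 48 peaks and no longer qualified. Flanks of 200 kb gave 14.7 zcrest peaks per Mb. No paired analysis was possible because each group has 1 library and no test was made.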
